A study of Mus musculus with 6 samples.

Results

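The Myc and Max network was followed through 7 genes, Myc, Mycn, Max, Mxi1, Mxd3, Mxd4 and Mnt, which are members of the network by name. All 7 had a row among the 12626 genes measured. RNA was sequenced from J1 WT mouse ES cells, an established line grown on gelatin without feeder cells. The samples were D0 in serum medium with LIF, and D6 and D13 after transfer to 2i+vitC, a serum-free medium with LIF, the Gsk3 inhibitor CT-99021, the MEK inhibitor PD0325901 and vitamin C. Each day had 2 biological replicates, which makes 6 samples. The authors deposited log2 CPM (read counts scaled to a common sequencing depth, on the log2 scale), from which whole reads could be recovered, and the samples held from 73230745 to 83688345 reads on genes. Days were compared with limma fitted on the 6 samples, and a gene was called when its Benjamini-Hochberg adjusted p was under 0.05. Changes of more than 4-fold, the minimum that the authors' rule adds, are given apart. Medium and time in culture changed together after D0 and cannot be told apart.

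Myc and Mycn are transcription factors that bind DNA only as dimers with Max. The dimers bind the E-box, favour the sequence CACGTG and recruit histone acetyltransferases, which promotes growth, ribosome production and cell cycle entry. Mxi1, Mxd3, Mxd4 and Mnt compete for Max and for the same E-boxes, and recruit the Sin3 corepressor with histone deacetylases. In ES cells, LIF through Stat3 is known to sustain Myc transcription, while ERK signalling stabilises Myc protein and Gsk3 marks it for degradation.

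The E-box that these proteins read was looked for in the promoters of the network itself, a feature that did not enter the list of genes. The motif CACGTG, which reads the same on both strands, was searched from 250 bases before to 50 bases after each RefSeq start site on GRCm38.p6. All members but Myc matched this promoter set, with 8 start sites for 6 genes, and 3 of the 8 promoters held the motif, in Max, Mnt and Mxd4. It was present in 7.15% of all 32851 promoters and in 10.1% of those of genes in the files. In 3 lists of genes that Myc is known to activate, 10 of 44 promoters held it, or 22.7%. The windows below show the motif in capitals with 9 bases on each side. The 3 network genes come first, then 3 of the listed genes that hold it, as examples. Where a promoter held several, the one nearest the start site is shown.
Max, chr12:76962237-76962260, minus strand, motif beginning 3 bases before the start site: gagcccggtCACGTGttagggggc
Mnt, chr11:74830792-74830815, plus strand, motif beginning 123 bases before: cacccaagcCACGTGtgcgcgcgc
Mxd4, chr5:34187915-34187938, minus strand, motif beginning 219 bases before: ctgggccacCACGTGctgttgcta
Cdk4, chr10:127063515-127063538, plus strand, motif beginning 11 bases before: ggtgaagatCACGTGtccagaacg
Ldha, chr7:46845747-46845770, plus strand, motif beginning 48 bases before: cccagcctaCACGTGggttcccgc
Tyms, chr5:30073672-30073695, minus strand, motif beginning 61 bases before: cacttctgtCACGTGggggcgggg
These are matches of letters and not measured binding sites. Of the 3 members with the motif, Mnt passed the test in a comparison of days, whereas Max and Mxd4 did not pass it in any.

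Both activators fell steeply when cells left serum, and the fitted changes of Max and of the antagonists were smaller. Between D0 and D6, Myc fell 27.5-fold and Mycn 4.18-fold, and Mxi1 was the single member that rose, by 1.67-fold. By D13, Myc was 127-fold lower than at D0, and Mnt had joined the activators with a 1.89-fold fall. Between D6 and D13, Myc alone passed the test, with a further 4.62-fold fall.

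Of the 7 members, 3 were called between D0 and D6 (1 up and 2 down), where 24.2% of all genes were called, 13.8% up and 10.4% down. Between D6 and D13, 1 was called, as a fall, where 4.18% of all genes were, 1.43% up and 2.76% down. Between D0 and D13, 3 were called as falls, where 42.7% of all genes were called, 20.9% up and 21.8% down. The number of members called is therefore given as a description. Myc and Mycn fell more than 4-fold between D0 and D6 and between D0 and D13, as 3.9% and 6.01% of all genes did, and Myc did so between D6 and D13, as 0.697% did. The samples of the days did not overlap for 6, 5 and 6 of the 7 members in the 3 comparisons, which was also true of 69.4%, 61.6% and 69.6% of all genes.

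**Figure D1:**
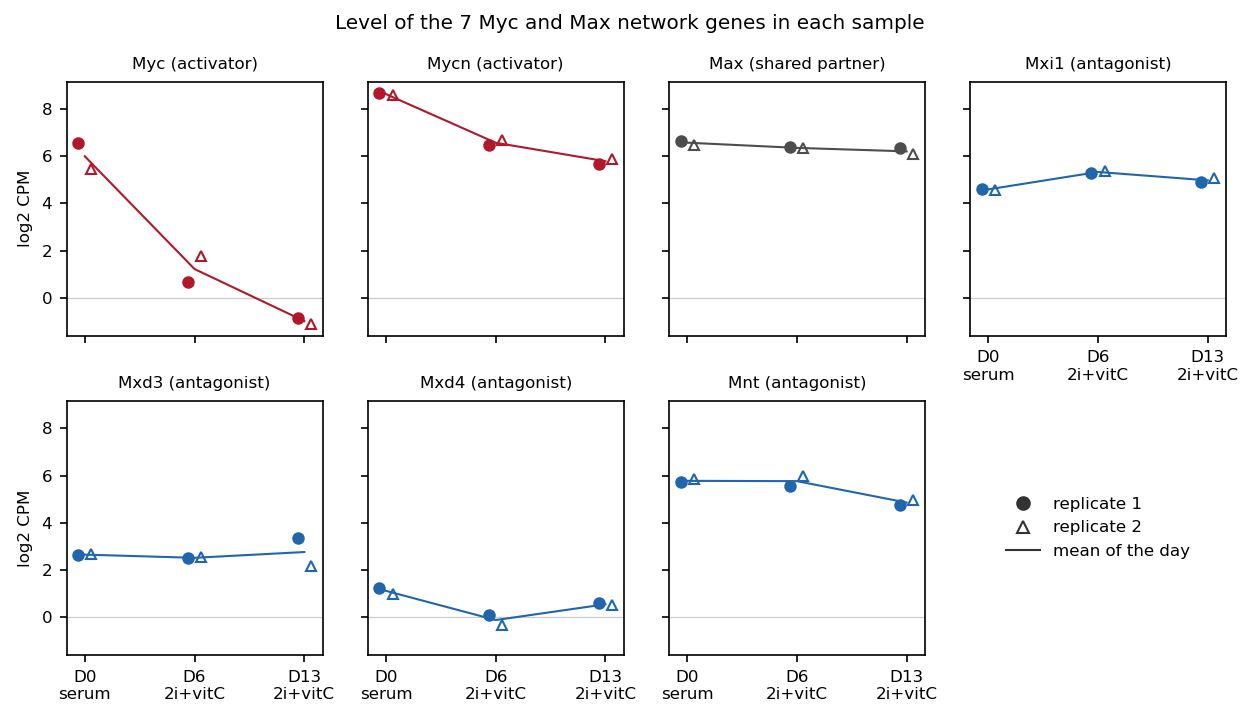
Log2 CPM (vertical axis) of each of the 7 genes on the 3 days of conversion (horizontal axis), with a circle for replicate 1, a triangle for replicate 2 and a line through the mean of each day. Myc drops from between 5.45 and 6.55 to below 0, Mycn from 8.59 or more to 5.89 or less, and Max stays between 6.08 and 6.66.

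Myc lies on chromosome 15 of GRCm38, positions 61985391 to 61990374. Its D0 samples had a log2 CPM of 6.55 and 5.45 (7387 and 3806 reads), its D6 samples 0.66 and 1.78 (124 and 291 reads), and its D13 samples -0.86 and -1.12 (39 and 34 reads). Every D0 value lay above every D6 value, and every D6 value above every D13 value. The replicates differed by about a log2 unit at D0 and again, in the opposite order, at D6, and were closer at D13. The log2 fold change between D0 and D6 was -4.78 ± 0.49 (SE, limma adjusted p = 0.000245). Between D0 and D13 it was -6.99 ± 0.49 (SE, limma adjusted p = 2.89e-05), and 7 of the 12626 genes fell further. Each of these genes had at least 2 reads in both D13 samples, so genes at 0 reads there are not ranked. Among the 13 alternatives the change of Myc between D0 and D13 ran from -7.54 to -5.43, the latter on log2(CPM + 1). Leaving out D0 replicate 1, the sample with the most Myc, gave -6.44 (limma adjusted p = 0.000632). The step between D6 and D13 was -2.21 ± 0.49 (SE, limma adjusted p = 0.0446). This call was lost without D6 replicate 2 (-1.65, limma adjusted p = 0.335), without D13 replicate 1 (0.165) or replicate 2 (0.0821), with voom precision weights (0.121), without a mean-variance trend (0.0515) and on log2(CPM + 1) (-1.17, 0.116).

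Mycn, on chromosome 12 at 12936093 to 12941914, encodes N-Myc, which can replace Myc in many settings. In log2 CPM, serum cells had 8.68 and 8.59, D6 cells 6.47 and 6.68, and D13 cells 5.69 and 5.89. The replicates lay close together and the 3 days did not overlap. The lowest sample still had 3695 reads. Mycn changed by -2.06 ± 0.21 between D0 and D6 (SE, limma adjusted p = 0.00021) and by -2.85 ± 0.21 between D0 and D13 (SE, limma adjusted p = 3.36e-05). Both calls held under the 13 alternatives tried, with values of -2.17 to -1.96 and -2.95 to -2.75. The change between D6 and D13, -0.78 (95% interval -1.25 to -0.32, limma adjusted p = 0.0636), did not pass, although it did with a replicate block (0.0461) or without D13 replicate 2 (0.0453).

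Max, on chromosome 12 at 76937269 to 76962201, encodes the dimer partner that activators and antagonists share. GENCODE places 1 gene, Gm47218, over Max on the same strand. The log2 CPM of Max was 6.66 and 6.50 in serum, 6.38 and 6.34 on D6, and 6.34 and 6.08 on D13. The D0 values stood above all others, while D6 and D13 overlapped. The log2 fold change between D0 and D13 was -0.37 (95% interval -0.84 to 0.10, limma adjusted p = 0.184). That interval does not reach the one of Mycn, -3.31 to -2.38. None of the 13 alternatives called a change of Max in the 3 comparisons, and between D0 and D13 its adjusted p ranged over 0.0949 to 0.371 among them.

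Mxi1, on chromosome 19 at 53310518 to 53375810, is an antagonist of the Mxd family. Its log2 CPM was 4.63 and 4.56 in serum, rose to 5.31 and 5.36 on D6, and stood at 4.90 and 5.06 on D13. It was highest on D6, and the 3 days did not overlap. The rise between D0 and D6 was 0.74 ± 0.22 (SE, limma adjusted p = 0.0385). The call was lost without any of the 4 samples of these days (adjusted p of 0.071 to 0.306), without a mean-variance trend (0.0538) and after centring on the median gene (0.0519), while the change stayed between 0.68 and 0.77. Neither the change between D6 and D13 (-0.36, limma adjusted p = 0.349) nor that between D0 and D13 (0.38, 95% interval -0.11 to 0.88, limma adjusted p = 0.187) passed. GENCODE places 2 genes on the opposite strand over Mxi1, and the strand setting of the read counting is not given in the sources used here.

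Mnt, on chromosome 11 at 74830920 to 74845725, is the antagonist that dividing cells express together with Myc. In log2 CPM it had 5.71 and 5.84 in serum, 5.55 and 5.98 on D6, and 4.75 and 4.96 on D13. D0 and D6 overlapped, and both D13 samples lay below them. The change was -0.01 (95% interval -0.55 to 0.53, limma adjusted p = 0.98) between D0 and D6 and -0.92 ± 0.24 (SE, limma adjusted p = 0.0141) between D0 and D13. The latter stayed between -1.03 and -0.81 under the alternatives, but lost its call without D0 replicate 2 (adjusted p = 0.0547, limma) and without D13 replicate 1 (0.0538). The fall of 0.91 between D6 and D13 was short of the test (limma adjusted p = 0.0626), and passed it with the replicate number as a block (0.0327).

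Mxd3 and Mxd4 had the lowest log2 CPM of the members at D0. Mxd4, on chromosome 5 at 34173883 to 34187720, is associated with cells leaving the cell cycle. It had 184 and 173 reads in serum, 84 and 66 on D6, and 107 and 105 on D13. It was lowest on D6, and the days did not overlap. Its log2 fold change of -1.24 between D0 and D6 (95% interval -2.18 to -0.29, limma adjusted p = 0.0614) did not pass, although it did without a mean-variance trend (0.014) and on log2(CPM + 1) (-0.72, 0.0489).

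Mxd3, on chromosome 13 at 55325168 to 55329823, is known to be expressed in S phase of proliferating cells. Its log2 CPM was 2.61 and 2.68 in serum, 2.48 and 2.54 on D6, and 3.35 and 2.16 on D13. The D13 replicates, with 727 and 336 reads, fell on either side of the other 4 samples. Its change between D0 and D13, 0.11 (95% interval -0.81 to 1.03, limma adjusted p = 0.841), turned to -0.48 without D13 replicate 1, and no direction can be given. Prelid1 overlaps Mxd3 and a noncoding gene overlaps Mxd4, each on the opposite strand.

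**Figure D2:**
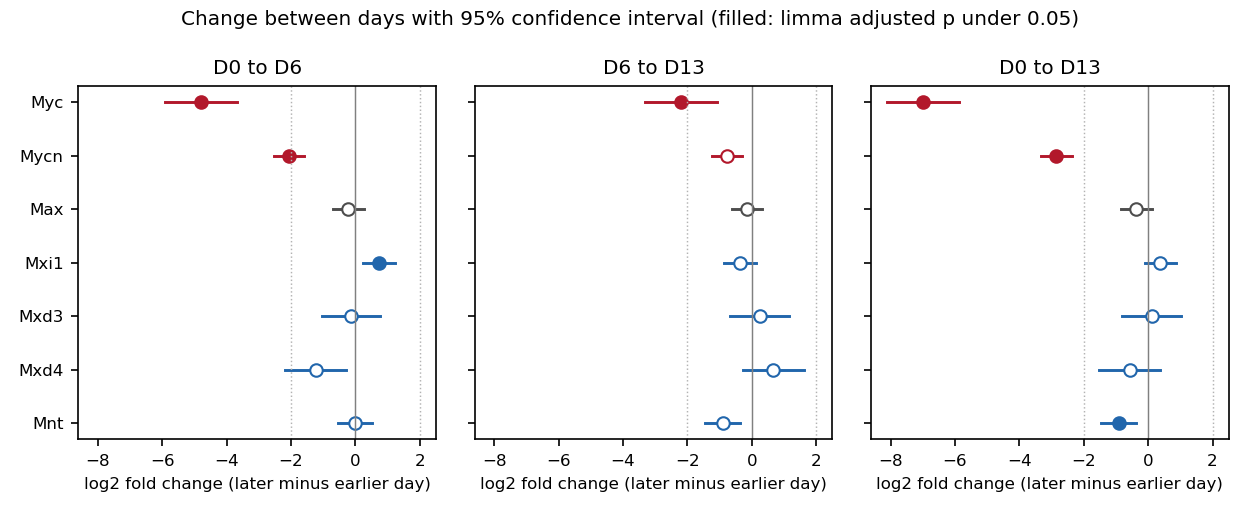
Log2 fold change (horizontal axis, later minus earlier day) of the 7 genes in each comparison, with 95% confidence intervals from limma. Filled points have an adjusted p under 0.05, and dotted lines mark a 4-fold change. The intervals of Myc and Mycn lie wholly below 0 in the 3 comparisons, and those of Max and Mxd3 include 0 in each.

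To compare levels between genes, CPM was divided by the exon length of each gene. On this scale Mycn exceeded Myc in every sample. Mycn had 121 CPM per kilobase ± 5.23 in serum, 29.0 ± 3.01 on D6 and 16.8 ± 1.62 on D13 (SD, n = 2). Myc had 34.5 and 16.1 CPM per kilobase in the D0 samples, 0.58 and 1.26 in the D6 samples, and 0.20 and 0.17 in the D13 samples. Myc thus made up 16.9% ± 6.82 (SD, n = 2) of the sum of both in serum, 3.01% ± 1.26 on D6 and 1.11% ± 0.25 on D13. The level of Mycn was 5.46 ± 2.61 times that of Myc in serum, 35.4 ± 15.2 times on D6 and 91.7 ± 20.6 times on D13, without overlap between days. Among 11479 genes with a length, Myc stood at percentile 82.4 at D0 and 2.81 at D13, and Mycn at 97.5 and 73.5.

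Max had 26.6 CPM per kilobase ± 2.06 at D0 and 20.6 ± 2.62 at D13 (SD, n = 2). At D0 its level lay between those of Myc in the replicates. Among the antagonists, Mnt was the most abundant per length, with 11.8 ± 0.76 at D0 and 6.27 ± 0.66 at D13. Mxi1 followed with 3.55 ± 0.11 and 4.63 ± 0.38, then Mxd3 with 2.64 ± 0.08 and 3.09 ± 1.70, and Mxd4 came last with 0.26 ± 0.03 and 0.17 ± 0.01. The order of the 4 antagonists was clear of the spread between replicates at D0. At D13, Mxi1 had 4.36 and 4.90 in the samples and Mxd3 4.30 and 1.89, so the upper value of Mxd3 lay just below both of Mxi1.

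The sum of Myc and Mycn was 146 CPM per kilobase ± 18.3 in serum, 29.9 ± 3.49 on D6 and 17.0 ± 1.59 on D13 (SD, n = 2). The sum of the 4 antagonists was 18.3 ± 0.70, 20.3 ± 2.70 and 14.2 ± 0.67 on those days. Myc and Mycn amounted to 8.94 and 7.09 times these 4 antagonists in the D0 samples. The ratio was 1.49 and 1.46 in the D6 samples, and 1.09 and 1.33 in the D13 samples. The 3 days did not overlap, and the drop between D0 and D6 was the larger one. Relative to Max, Myc and Mycn went from 5.49 ± 0.26 in serum to 1.32 ± 0.18 on D6 and 0.84 ± 0.18 on D13. Both D13 samples had more Max than Myc and Mycn per length, by a small margin in replicate 2 (18.8 against 18.1 CPM per kilobase). The sums leave out Mycl, Mxd1 and Mga, family members described below, and the ratios hold only for the genes summed. Mycl had a log2 CPM of 3.90 and 3.85 on D13. Mga, which pairs with Max, had 8.44 and 9.24 at D0 and 7.47 and 8.96 at D13. With 2 samples a day, the smallest p of a two-sided exact permutation test is 0.333, so these ratios are given without a test. They concern RNA and not protein. In bulk RNA, fewer cells with a transcript and less of it per cell cannot be told apart.

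**Figure D3:**
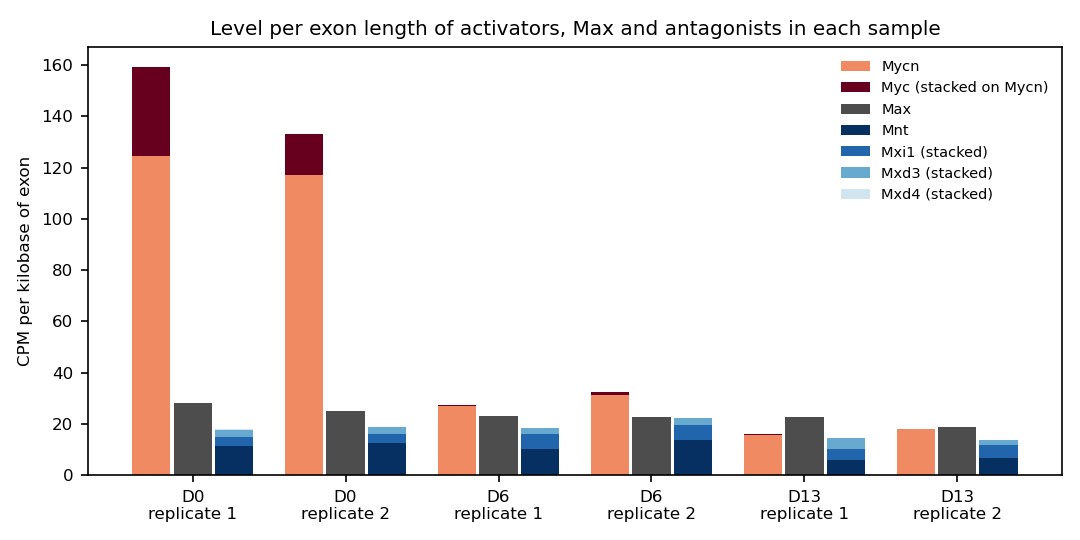
CPM per kilobase of exon (vertical axis, from 0) in each of the 6 samples (horizontal axis), with Myc stacked with Mycn, then Max, then the 4 antagonists stacked. The activators reach 159 and 133 in the D0 samples against antagonist sums of 17.8 and 18.8, and 15.9 and 18.1 in the D13 samples against 14.6 and 13.7.

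Of the other proteins of this family, Mycl, Mxd1, Mga, Mlx, Mlxip and Mlxipl were measured. Between D0 and D13, 1 of the 6 rose and 3 fell, beside 20.9% and 21.8% of all genes. Mlx, the partner that takes the place of Max in a nutrient-sensing branch, fell by 1.03 on the log2 scale (SE 0.21, limma adjusted p = 0.00467). Mlxipl, the carbohydrate-responsive factor ChREBP that binds with Mlx, had 552 and 1187 reads in serum, 933 and 1095 on D6, and 2038 and 2602 on D13. Its D13 samples stood above the others, and the rise was 1.69 ± 0.34 (SE, limma adjusted p = 0.00452).

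Mycl, a further paralog of Myc, fell by 0.79 (SE 0.23, limma adjusted p = 0.0219), and the antagonist Mxd1 by 0.91 (SE 0.31, limma adjusted p = 0.0452). Both calls were lost without either D6 sample and with only D0 and D13 in the fit, and that of Mxd1 also without D0 replicate 2, without D13 replicate 1 and with the replicate number as a block. Mlxip, another partner of Mlx, had -0.38 (limma adjusted p = 0.322). Mga, which pairs with Max in a variant Polycomb complex, had -0.62 (95% interval -1.65 to 0.41, limma adjusted p = 0.298). Its replicates lay far apart, with 27315 and 52792 reads at D0 and 12707 and 37481 at D13, and its change was 0.13 without D13 replicate 1 and -1.37 without replicate 2 (limma adjusted p = 0.0206). Between D0 and D6, 0 of these 6 were called by limma, also with voom weights, and 2 had an unadjusted p under 0.05. Mlxip, at -0.88 (limma adjusted p = 0.0607), was called there in 5 of the 13 alternatives, which were the replicate block, leaving out either D13 sample, centring on the median gene and only the 2 days compared.

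The median change of genes that Myc is known to activate was smaller than the changes of Myc and Mycn, although Ccnd2 among them fell further than Mycn between D0 and D13. In 3 lists of such genes, 10 of 44 fell and 2 rose between D0 and D13, or 22.7% and 4.55%, beside 21.8% and 20.9% of all genes. Their median log2 fold change was -0.36, beside -0.01 over all genes. Between D0 and D6, 3 of the 44 fell, or 6.82% beside 10.4% of all genes, with a median of -0.20. Between D6 and D13, limma called 0, also with voom weights, and 4 had an unadjusted p under 0.05. A replicate block called 4 falls there, and 5 other alternatives called 1 each. The D0 samples weighed on these values. Without D0 replicate 1, which had 1.94 times the Myc reads of its replicate, the median between D0 and D13 was -0.03 with 4 genes down, and that between D0 and D6 was 0.01 with 0 down in limma. Without D0 replicate 2 they were -0.60 with 17 down and -0.40 with 7 down. The part of the Myc level of the D0 samples in this was not tested.

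Of 15 nucleolar genes, 3 fell and 0 rose between D0 and D13, beside 21.8% and 20.9% of all genes, and the median was -0.54. Polr1b, a subunit of RNA polymerase I, fell 2.00-fold (limma adjusted p = 0.0114), a call that ended without D0 replicate 1 or D13 replicate 1. Wdr43, which acts in ribosomal RNA processing, fell 1.78-fold (limma adjusted p = 0.0102), and Nop58, a core protein of small nucleolar particles, 1.71-fold (limma adjusted p = 0.017). Ncl and Npm1, which encode the abundant proteins nucleolin and nucleophosmin, had -0.74 (limma adjusted p = 0.0623) and -0.54 (limma adjusted p = 0.22).

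Of 15 metabolic genes, 5 fell and 0 rose between D0 and D13, beside 21.8% and 20.9% of all genes, and the median was -0.38. Odc1, the rate-limiting enzyme of polyamine synthesis, had 78005 and 52244 reads in serum, 25260 and 36559 on D6, and 22497 and 23646 on D13. Its D0 samples stood above the rest, the fall was 2.44-fold (limma adjusted p = 0.00718), and the call held under the 13 alternatives. Slc2a1, the glucose transporter Glut1, fell 2.30-fold (limma adjusted p = 0.0487), with 32801 and 13134 reads in the D0 samples. That call was lost without D0 replicate 1, without either D13 sample, without a mean-variance trend and after centring on the median gene. Umps and Tyms, enzymes of pyrimidine synthesis, fell 1.95-fold (limma adjusted p = 0.00649) and 1.53-fold (limma adjusted p = 0.0457), and Pkm, pyruvate kinase, 1.80-fold (limma adjusted p = 0.0498). Ldha, lactate dehydrogenase, had -0.74 (95% interval -1.79 to 0.31, limma adjusted p = 0.227), with 107546 and 42633 reads in the D0 samples.

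The cell cycle and translation genes went both ways, with 2 of 14 up and 2 down, beside 20.9% and 21.8% of all genes, and a median of 0.09. Ccnd2, which encodes cyclin D2, had 3450 and 615 reads in serum, 392 and 45 on D6, and 33 and 18 on D13. The replicates differed widely, and the fall between D0 and D13 was 5.69 on the log2 scale (SE 1.08, limma adjusted p = 0.00354). Ccne1, which encodes cyclin E1, fell by 1.31 (limma adjusted p = 0.0435), but the change was -0.50 without D0 replicate 1 (limma adjusted p = 0.192), and the call was also lost without either D13 sample and without a mean-variance trend. Cdc25a, a phosphatase that activates cyclin-dependent kinases, rose by 0.95 (SE 0.23, limma adjusted p = 0.0111). E2f1, a transcription factor of S phase entry, rose by 0.97 (SE 0.27, limma adjusted p = 0.0189). Its change stayed between 0.64 and 1.30 under the alternatives, and the call was lost without D0 replicate 1 or D13 replicate 1. Cdk4 and the translation factor Eif4e, whose promoters hold the E-box, had -0.03 (95% interval -0.53 to 0.46) and 0.10 (95% interval -0.40 to 0.60). Other listed genes hold it too, among them Wdr43 and Tyms, called as falls above, and Ldha, which was not called.

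A list of genes that Myc is held to repress, together with Zbtb17, which encodes its partner Miz1, had 5 of 10 up and 2 down between D0 and D13, beside 20.9% and 21.8% of all genes. Cdkn1a, which encodes the inhibitor p21, had 2648 and 2912 reads in serum, 15854 and 15611 on D6, and 19795 and 20534 on D13. The replicates lay close together each day, and the rise to D13 was 8.22-fold (log2 fold change 3.04 ± 0.19, SE, limma adjusted p = 2.21e-05). Cdkn2a, whose Arf product Myc is known to induce rather than repress, rose by 3.04 (SE 0.37, limma adjusted p = 0.000372), and Cdkn2b, which encodes p15, by 1.34 (SE 0.44, limma adjusted p = 0.0382). Ndrg1, a stress-responsive gene, rose by 1.85 (SE 0.26, limma adjusted p = 0.000791) and Zbtb17 by 0.96 (SE 0.22, limma adjusted p = 0.0091). Cdkn1c, the imprinted gene of p57, fell by 3.91 (SE 0.61, limma adjusted p = 0.00136), and Clu, which encodes clusterin, by 2.52 (SE 0.30, limma adjusted p = 0.000348). The cell cycle inhibitors of this list thus moved in both directions.

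**Figure D4:**
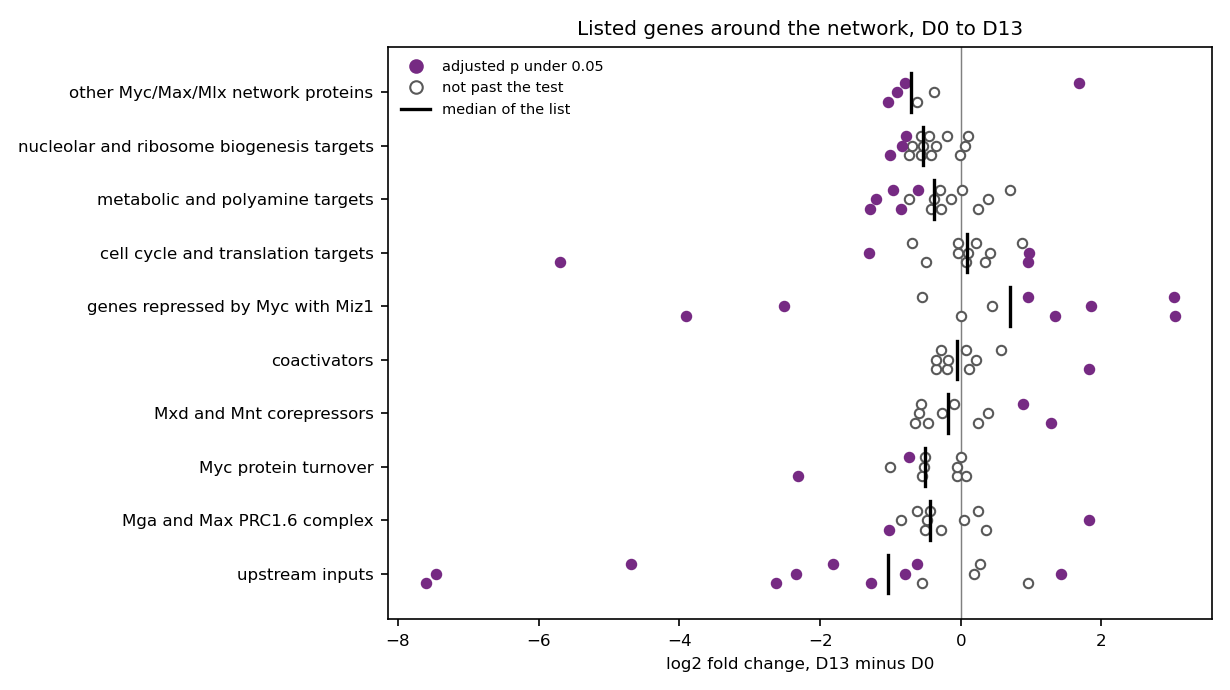
Log2 fold change between D0 and D13 (horizontal axis) of each gene in 10 lists around the network (vertical axis), with filled points for an adjusted p under 0.05 and a bar at the median of each list. The medians of the 3 lists of genes that Myc activates lie between -0.54 and 0.09, and that of the upstream inputs is -1.03.

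Cofactors of the network were compared between D0 and D13, where 20.9% of all genes rose and 21.8% fell, and the counts in these short lists are given as a description. Of 10 coactivators, Wdr5 alone was called. It encodes a subunit of histone methyltransferases that helps Myc bind chromatin, and rose by 1.83 (SE 0.21, limma adjusted p = 0.000265). Of 10 corepressors that work with the antagonists, Sin3b rose by 1.29 (SE 0.27, limma adjusted p = 0.00581) and the deacetylase Hdac2 by 0.88 (SE 0.22, limma adjusted p = 0.0132). Of 10 genes that act on Myc protein stability, 2 fell. Usp36, a nucleolar deubiquitinase that stabilises Myc, fell by 2.31 (SE 0.24, limma adjusted p = 0.000167). Aurka, a kinase that stabilises N-Myc, fell by 0.73 (SE 0.20, limma adjusted p = 0.0185), a call that was lost without either D6 sample and with only D0 and D13 in the fit. In the variant Polycomb complex of Mga and Max, 1 of 11 genes rose, again Wdr5, and 1 fell. That was Rybp, a Ring1-binding subunit, with a fall of 1.01 (SE 0.26, limma adjusted p = 0.0134) that was not called without D0 replicate 2 or D13 replicate 1.

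Of 14 genes of the pathways upstream of Myc, 9 fell and 1 rose between D0 and D13, beside 21.8% and 20.9% of all genes, with a median of -1.03. Spry4 and Egr1, targets of ERK signalling, fell by 7.61 (SE 0.66, limma adjusted p = 7.11e-05) and 7.47 (SE 0.53, limma adjusted p = 2.89e-05). Dusp6, a phosphatase induced by ERK, fell by 4.68 (SE 0.38, limma adjusted p = 5.4e-05). Lef1, a transcription factor of the Wnt pathway, was 3.05 lower at D6 than at D0 (limma adjusted p = 0.00197) and fell by 1.82 between D0 and D13 (limma adjusted p = 0.015). Axin2, a target of beta-catenin, rose by 1.98 between D0 and D6 (SE 0.35, limma adjusted p = 0.00384). Its later changes did not pass, at -1.02 between D6 and D13 (limma adjusted p = 0.125) and 0.96 between D0 and D13 (limma adjusted p = 0.0544). Socs3, a target of Stat3, rose by 1.42 between D0 and D13 (limma adjusted p = 0.0314), which was not called without D0 replicate 2, without either D13 sample or without a mean-variance trend. Stat3 itself had 0.19 (limma adjusted p = 0.611).

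The samples carried the markers of pluripotent cells on every day, with 9 of 9 measured. The summed level of these markers was 3546 to 4464 CPM at D0 and 6250 to 7703 CPM at D13, and Pou5f1 had a log2 fold change of 0.04 (limma adjusted p = 0.922). Tfcp2l1 rose by 3.17 and Nanog by 1.37, and Sox2 fell by 0.69 (limma adjusted p = 0.0312), a call kept in 6 of the 13 alternatives. Between D0 and D13, 21.8% of all genes fell and 20.9% rose, and the counts of calls in these short marker lists are given as a description. Of the markers of primed epiblast and mesoderm, 5 of 8 were measured, and 4 of them fell. Their sums were 935 to 1087 CPM in serum and 110 to 123 CPM on D13 for the 5 measured. Pou3f1 fell by 5.25 and Dnmt3b by 3.70. The sum of 6 primitive endoderm markers, of 8 listed, was 414 to 445 CPM in serum and 437 to 536 CPM on D13. Within it, 2 of the 6 were called as falls, Col4a1 by 5.33 (limma adjusted p = 0.000188) and Dab2 by 4.66 (limma adjusted p = 6.95e-05). The other 4 had a higher mean at D13 without a call, among them Sparc with 0.70 (limma adjusted p = 0.0839). The median of the 6 was 0.45. For 5 fibroblast markers, of 8 listed, the sum was 639 to 1358 CPM in serum and 1579 to 1853 CPM on D13, most of it from Fn1 and Vim. Here Vim rose by 1.61 (limma adjusted p = 0.0396), and Col1a2 and Col1a1 fell by 3.86 (limma adjusted p = 0.00419) and 1.98 (limma adjusted p = 0.0372). The call of Vim was lost without D0 replicate 2 and that of Col1a1 without D0 replicate 1, and both were lost without either D13 sample. None of the markers measured was at 0 reads on any day, but on D6 and D13 this held for every gene with a row. The lowest gene had 7 and 6 reads in the D6 samples and 2 in each D13 sample. Listed markers without a row are not covered. The part of other cell types in the changes of Myc and Mycn was not tested.

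The genes whose course was most like that of a called member were found by the distance between their log2 CPM, centred on each gene, over the 6 samples and 11459 genes. For Myc these were Dnmt3l, a cofactor of de novo DNA methylation (distance 1.06, Pearson's r = 0.99), and Sema6a, a transmembrane semaphorin (distance 1.41, r = 0.98). Dnmt3l had mean log2 CPM values of 8.08, 3.21 and 1.76 on the 3 days. For Mycn they were Hecw2, a ubiquitin ligase, and Ddx25, an RNA helicase, each at a distance of 0.32. For Mxi1 they were Snx25 (distance 0.22) and Slc25a13 (distance 0.23), and for Mnt they were Rtel1 (distance 0.22) and Zfp286 (distance 0.23). With 2 samples on each of 3 days, such likeness rests mostly on the 3 means, and the samples share their libraries.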

How the data were processed

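RNA-seq of J1 ES cells was analysed for D0, D6 and D13, with 2 replicates a day, grouped by the labels. Per the labels and methods, reads were mapped to mm10 with TopHat2 2.0.6, RefSeq genes were counted with HTSeq 0.6.1, and transposon families from Bowtie 1.0.0 mappings. The authors applied TMM and voom and deposited log2 CPM values, without the precision weights. Gene values were whole reads plus 0.5, within 0.01 of a read, for 100% of values.

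The log2 values of 12626 genes and 302 families were fitted with limma 3.58.1 (R 4.3.3), with a mean per day, a mean-variance trend and Benjamini-Hochberg adjustment over 12928 rows. The script was tested on simulated data. Python 3.11.15, numpy 2.4.6 and pandas 2.3.3 served for the other steps. Exon lengths and positions are of GENCODE vM21 on GRCm38, the assembly of mm10, whereas counting used RefSeq. Names in the files hold 0 capital G, and genes spelled with it were left out of the lists. Replicates differed beyond counting noise on each day. The columns of per-sample values left unused number 0.

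The members and lists were chosen with earlier results of these data known. Named genes are the 7 members, the other family proteins, in each list up to 2 genes that rose and 2 that fell most between D0 and D13, and the 2 nearest in course to each called member. Nop58, Ncl, Npm1, Umps, Tyms, Pkm, Ldha, Cdk4, Eif4e, Cdkn2b, Ndrg1, Zbtb17, Dusp6, Lef1, Axin2, Stat3, Pou5f1, Sparc and Fn1 were chosen after their values were seen. Alternatives are not given for these genes one by one, so calls near the threshold, as of Pkm and Tyms, were not checked that way. Alternatives were the replicate number as a block, leaving out each sample, a minimum of 10 reads in 2 samples, voom weights, no trend, centring on the median gene, log2(CPM + 1), only the 2 days compared, and another length for the ratios. The minimum of 10 reads in 2 samples gave the same changes and calls of the members as the main fit, and is no separate check.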

Additional observations from a re-analysis of the deposited data

How the results depend on the processing

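Of 273 member changes recomputed over 13 alternatives, 250 kept direction and side of the threshold, 14 lost the call, 5 gained it and 4 turned. Those that turned were not called: Mnt from D0 to D6, which was 0.05 without D0 replicate 2 and ranged over -0.23 to 0.20 when a sample was left out, and Mxd3, which ranged over -0.35 to 0.84 from D6 to D13 and over -0.48 to 0.70 from D0 to D13, with the negative values without D13 replicate 1. Leaving out a sample, 2 to 3 members were called between D0 and D6, 0 to 1 between D6 and D13, and 2 to 3 between D0 and D13. Between D6 and D13, limma called 0 members with voom weights, without a trend and on log2(CPM + 1). Over all genes, leaving out a sample gave 1580 to 3532 calls (1127 to 1377 over 4-fold) between D0 and D6, 0 to 1337 (0 to 257) between D6 and D13, with 0 without D13 replicate 1, and 4002 to 5836 (1489 to 1935) between D0 and D13. On log2(CPM + 1), the calls over 4-fold numbered 748, 49 and 1106 in place of 1238, 137 and 1700.

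The difference between replicates correlated between days with r = -0.13 (D0 and D6), 0.33 (D6 and D13) and 0.14 (D0 and D13) over 12626 genes. Whether same-numbered samples came from the same culture series was not tested, and the main fit did not pair them. A replicate block gave 1226 calls in place of 528 and 3 members (Myc, Mycn and Mnt) in place of 1 between D6 and D13, and the other counts of genes and members stayed within 1.5 times.

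Leaving out a sample, Mycn per Myc ranged over 3.61 to 7.30, 24.7 to 46.2 and 77.1 to 106 on the 3 days, and activators per antagonist over 7.09 to 8.94, 1.46 to 1.49 and 1.09 to 1.33. With the longest transcript as the length, the latter was 1.57 in place of 1.48 at D6. The 34 to 39 reads of Myc at D13 limit the precision of its level there.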
